A study of Mus musculus with 9 samples.

Results

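The genes described here encode the Arp2/3 complex and other actin nucleators, the proteins that start new actin filaments. They are 10 genes taken by symbol from the array's probe annotation: the Arp2/3 subunit genes Actr3, Arpc1a, Arpc2, Arpc4, Arpc5 and Arpc5l, the activator genes Was and Wasl, and the formin genes Diaph1 and Fmnl1. All 10 were found among 30142 named genes, each on 1 probeset that carries a single symbol, and Diaph1 is listed in the annotation under its older symbol Diap1. The rule goes by symbol and uses no difference between groups.

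Expression was measured in LSK cells of mouse bone marrow, the fraction that lacks mature lineage markers, carries Sca-1 and c-Kit, and holds stem cells and early progenitors. The knockout (KO) group had 4 mice of genotype Abi1(-/-);Tg(Mx1-cre(+)), and the wild-type (WT) group had 5 mice of genotype Abi1(fl/fl);Tg(Mx1-cre(-)). All mice were given poly(I:C) in 3 injections at 8 to 9 weeks of age, which switches on the interferon-responsive Mx1 promoter, and were used at 12 to 14 weeks. Each mouse gave 1 array, made from 5 ng of total RNA. The WT mice kept floxed Abi1 alleles and carried no Cre, so an effect of Cre and one of the Abi1 deletion cannot be told apart. Mx1-Cre acts throughout the blood system and beyond it, and per the labels recombination was tested by PCR in bone marrow.

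Actin filaments do not start easily from single actin molecules, and cells use nucleators to overcome this. The Arp2/3 complex binds the side of an existing filament and starts a branch, and it does so only when a nucleation-promoting factor switches it on. WASP, encoded by Was and largely restricted to blood cells, and N-WASP, encoded by the widely expressed Wasl, are such factors and answer to the small GTPase Cdc42. The WAVE complex, which contains Abi1, is another and answers to Rac. Formins such as mDia1 (Diaph1) and FMNL1 (Fmnl1) build unbranched filaments instead. Loss of WASP in humans causes Wiskott-Aldrich syndrome, an immunodeficiency with low platelets. Several Arp2/3 subunits come in alternative forms, ARPC1A or ARPC1B and ARPC5 or ARPC5L, and complexes with different forms differ in activity.

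The label of the cells and of the groups was checked first. Of 10 marker genes of LSK cells 7 had a probeset of their own, and all 7 were above background in all 9 arrays. Background was the level below which 95% of olfactory and vomeronasal receptor genes lay in an array, at log2 signals of 5.29 to 5.64. The deleted gene Abi1 lay at 5.59 to 6.11 in KO and 11.49 to 11.65 in WT, so every array matched its label. The arrays KO replicate 1 and WT replicate 5 stood apart. The median correlation with the other arrays, across all genes, was 0.986 for KO replicate 1 and 0.989 for WT replicate 5, against 0.993 to 0.996 for the others. Signals of erythroid and platelet genes were low in WT replicate 5 (Car1 at 6.38 against 15.40 to 16.99 in the other arrays), and KO replicate 1 had the highest background.

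The results turn on Was and Arpc5, the genes with the smallest p of the 10, and on the balance of Was with its paralogue Wasl. The 250 bases before the start site are therefore shown for these 3 genes, from RefSeq on build GRCm38.p6, 5′ to 3′ on the strand of the gene. Capitals mark matches, on either strand, to CCGGAAG, the only form of ETS factor sites that was searched. They also mark GGGCGG, a GC box, as well as the CCAAT box, searched by those letters, and a box spelled TATAAA.
Was, chrX:8090492-8090741, minus strand: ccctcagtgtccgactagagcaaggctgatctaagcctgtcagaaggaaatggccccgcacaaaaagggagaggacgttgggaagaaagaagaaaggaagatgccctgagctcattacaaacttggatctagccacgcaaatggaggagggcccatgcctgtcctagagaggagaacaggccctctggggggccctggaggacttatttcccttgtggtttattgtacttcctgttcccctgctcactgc
Wasl, chr6:24664996-24665245, minus strand: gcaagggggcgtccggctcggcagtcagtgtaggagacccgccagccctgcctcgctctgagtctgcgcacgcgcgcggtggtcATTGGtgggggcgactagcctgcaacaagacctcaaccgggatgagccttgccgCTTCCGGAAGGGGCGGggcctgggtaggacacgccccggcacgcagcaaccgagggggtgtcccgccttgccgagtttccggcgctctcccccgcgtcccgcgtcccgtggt
Arpc5, chr1:152766292-152766541, plus strand: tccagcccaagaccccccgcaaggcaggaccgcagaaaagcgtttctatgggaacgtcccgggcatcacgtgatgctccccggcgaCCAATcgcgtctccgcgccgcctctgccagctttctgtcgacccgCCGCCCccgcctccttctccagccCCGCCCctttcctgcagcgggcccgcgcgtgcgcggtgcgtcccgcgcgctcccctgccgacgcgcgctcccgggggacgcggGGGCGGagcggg

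The Was window held 4 CpG dinucleotides and none of these motifs, so it has no capitals. The Wasl window held 28 CpG and the Arpc5 window 37, against a median of 6 over 32851 promoter windows of the same length. In Wasl CCGGAAG reads on both strands, in matches that overlap at the bases CCGG, next to a GC box, and a CCAAT box lies on the opposite strand. The Arpc5 window had 3 GC boxes and 1 CCAAT box. Sequences were used for 8 of the 10 members, all but Arpc5l and Diaph1. CCGGAAG occurred in 4 of the 8, the GC box in 5, the CCAAT box in 2 and the TATA box in 0. Over all windows these motifs occurred in 6.91%, 32.7%, 33.8% and 12.4%. Such a match describes letters only, and the absence of a match says only that these letters are not in the window. Other forms of ETS sites, in the Was window or elsewhere, were not searched.

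All 10 genes were above background in all 9 arrays, so LSK cells of both genotypes carried transcripts of the Arp2/3 complex, of both WASP-type activators and of both formins. The level of a probeset depends on its probes as well as on the transcript. Signals of different genes are therefore not ranked, and it cannot be read from them which of 2 paralogues is the more abundant. Of the alternative subunit forms both Arpc5 and Arpc5l were detected. Arpc1a was detected, and the probesets of its partner Arpc1b, and of Actr2, Arpc3 and Actr3b, were not analysed here, having no probeset with 1 symbol in the annotation used.

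Most of the 10 genes varied little from mouse to mouse. The residual standard deviation, the spread of arrays around their group means, was below the median of 0.20 for genes above background in 8 of 10 members. It was 0.041 for Arpc2, with 2.43% of genes above background showing a smaller one, and 0.24 for Arpc5l and 0.22 for Diaph1, the only members over that median. Equal values occur among them: Wasl held exactly 9.67 in 6 of 9 arrays, and Actr3 and Arpc2 each held one value in 4. Of the genes above background, 13.2% held one value in at least 5 arrays. How the deposited values came to be equal in different mice is not given in the sources used here.

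The comparison of KO with WT asks whether cells without one WAVE component alter the transcripts of the other actin nucleators. No member passed an adjusted p of 0.05 in limma, where 1 gene of 30142 (0.00332%), Abi1 itself, did. Among the members 6 had a higher and 4 a lower mean in KO, with a median log2 difference of 0.011, while 63.9% of all genes (54.3% of those above background) had a higher mean and the median difference was 0.034. With arrays centred on their medians 4 members were higher and 6 lower, and 39.8% of all genes were higher. At an unadjusted p under 0.05 the count was 2 of 10, Was and Arpc5, both higher in KO, where 3.82% of all genes and 5.01% of genes above background met that rule in that direction, and 0 were lower (1.19% of all genes).

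**Figure D1:**
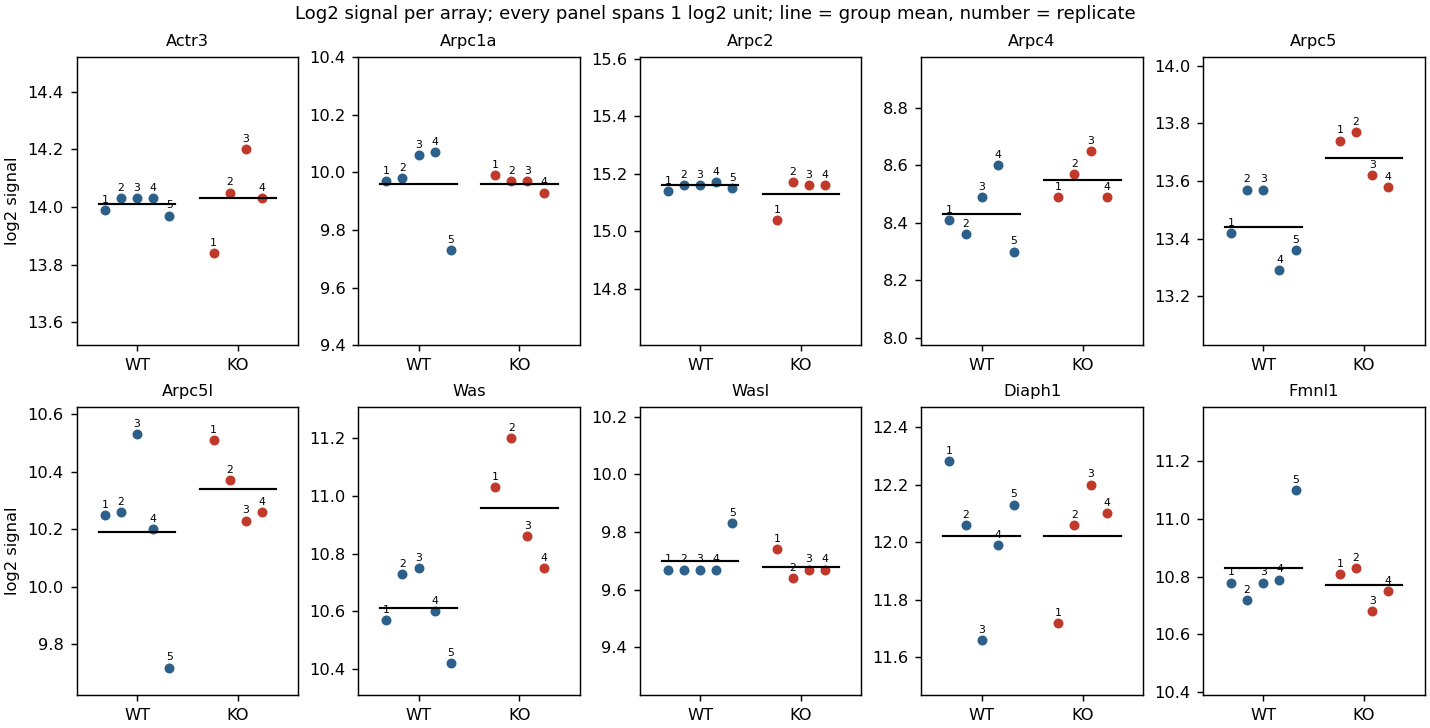
Log2 signal of each gene in each array, with WT arrays in blue and KO arrays in red, the replicate number over each point and the group mean as a line; every panel spans the same height of 1 log2 unit. Was and Arpc5 sit higher in KO, WT replicate 5 is the lowest WT array in Arpc1a and Arpc5l and the highest in Wasl and Fmnl1, and KO replicate 1 is the lowest KO array in Arpc2.

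Among the Arp2/3 subunit genes, Actr3 encodes Arp3, which with Arp2 mimics the end of a filament. Its log2 signal was 13.84, 14.05, 14.20 and 14.03 in KO replicates 1 to 4 and 13.97 to 14.03 in the WT arrays. The KO arrays thus lie on both sides of a narrow WT range. The difference was 0.020, and its 95% interval ran from -0.13 to 0.17 (limma adjusted p = 0.93), and its sign turned with quantile normalization (-0.055) and with centring (-0.037).

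Arpc2 encodes a scaffold subunit that holds the complex on the mother filament. Its signal was 15.04 in KO replicate 1, 15.16 to 15.17 in KO replicates 2 to 4, and 15.14 to 15.17 in WT. All but KO replicate 1 therefore fell within a few hundredths. The difference was -0.024 with an interval from -0.11 to 0.059, the narrowest of the 10, and it was 0.0073 without KO replicate 1.

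Arpc4 encodes another scaffold subunit, and Arpc1a a subunit on which activators dock. Arpc4 ranged from 8.49 to 8.65 in KO and from 8.30 to 8.60 in WT, with a difference of 0.12 (interval -0.036 to 0.27, limma adjusted p = 0.786). Arpc1a ranged from 9.93 to 9.99 in KO and from 9.97 to 10.07 in 4 of the WT arrays, with WT replicate 5 at 9.73. Its difference was 0.0030 with an interval from -0.16 to 0.16, -0.054 with centring and -0.055 without WT replicate 5. For both genes the groups overlapped.

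Arpc5 and Arpc5l encode alternative forms of the same small subunit, and as deposited both had a higher mean in KO. Arpc5 had signals of 13.74, 13.77, 13.62 and 13.58 in KO replicates 1 to 4 and of 13.42, 13.57, 13.57, 13.29 and 13.36 in WT replicates 1 to 5. Every KO array was above every WT array, by the last printed decimal at the closest, and this was the 1 member of 10 whose groups did not overlap. Among all genes 0.68% lay apart in that direction, and 0.936% among genes above background. The means were 13.68 ± 0.092 (SD, n = 4) and 13.44 ± 0.13 (SD, n = 5). The difference was 0.24 (SE 0.074, interval 0.067 to 0.40), or 1.18-fold if the values are log2. It did not pass over all genes (limma adjusted p = 0.786, unadjusted p = 0.0119), and exact permutation of the group labels, two-sided, over 126 splits, gave p = 0.0317. The difference was 0.15 with quantile normalization, with an unadjusted limma p of 0.0774.

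Arpc5l had signals of 10.51, 10.37, 10.23 and 10.26 in KO replicates 1 to 4 and of 10.25, 10.26, 10.53, 10.20 and 9.72 in WT replicates 1 to 5. The groups overlapped apart from WT replicate 5, which lay below all other arrays. The difference was 0.15 (interval -0.19 to 0.49, limma adjusted p = 0.787), and without WT replicate 5 it was 0.033.

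The Was gene had the largest difference of the 10. Its signals were 11.03, 11.20, 10.86 and 10.75 in KO replicates 1 to 4 and 10.57, 10.73, 10.75, 10.60 and 10.42 in WT replicates 1 to 5. The lowest KO array equalled the highest WT array, and the other 3 KO arrays were above all of WT. The means were 10.96 ± 0.20 (SD, n = 4) and 10.61 ± 0.13 (SD, n = 5), a difference of 0.35 (SE 0.10, interval 0.11 to 0.58) or 1.27-fold if the values are log2. It did not pass over all genes either (limma adjusted p = 0.786, unadjusted p = 0.00969), and exact permutation of the labels gave a two-sided p of 0.0159.

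Wasl had signals of 9.74, 9.64, 9.67 and 9.67 in KO replicates 1 to 4, of 9.67 in WT replicates 1 to 4 and of 9.83 in WT replicate 5. No shift between the groups is visible in these values. The difference was -0.022 with an interval from -0.13 to 0.082 (limma adjusted p = 0.878), and its sign turned with quantile normalization (0.025) and without WT replicate 5 (0.010). The equal values make the measured spread small, so the interval may be too narrow.

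The formin genes showed no difference past the test. Diaph1, which encodes the formin mDia1, ranged from 11.72 to 12.20 in KO and from 11.66 to 12.28 in WT. The low ends were KO replicate 1 and WT replicate 3, and the difference was -0.0040 with an interval from -0.32 to 0.31. Fmnl1, a formin of blood cells, ranged from 10.68 to 10.83 in KO and from 10.72 to 10.79 in WT replicates 1 to 4, with WT replicate 5 at 11.10. Its difference of -0.067 (interval -0.25 to 0.12) was 0 without WT replicate 5.

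**Figure D2:**
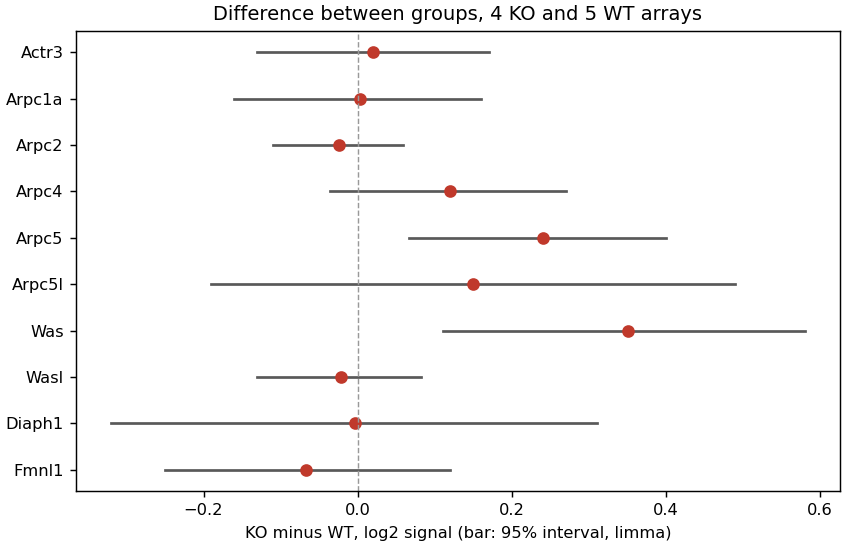
Difference in log2 signal between KO and WT for each gene (point) with the 95% interval from limma (bar), and the dashed line at 0. The intervals of Was (0.11 to 0.58) and Arpc5 (0.067 to 0.40) lie above 0 before adjustment for the number of genes tested, and the other 8 include 0.

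The intervals also bound what could have been missed. For Actr3, Arpc1a, Arpc2 and Wasl both ends lay within 0.2 on the log2 scale, and the interval of Arpc2 corresponds to 0.929-fold to 1.04-fold. Equal values, in 6 of 9 arrays for Wasl and in 4 each for Actr3 and Arpc2, may make these intervals too narrow. With quantile normalization the Arpc2 difference was -0.10. The widest were those of Arpc5l (0.878-fold to 1.40-fold) and Diaph1 (0.801-fold to 1.24-fold). For these bulk samples a change in the share of a cell type and a change in RNA per cell cannot be told apart.

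Isoform use was compared between the groups as a balance, the difference in log2 signal of a pair of paralogues within an array, whose probe effects cancel when arrays are set against each other. There were 2 such pairs. The balance of Arpc5l minus Arpc5 was -3.23, -3.40, -3.39 and -3.32 in KO replicates 1 to 4 and -3.17, -3.31, -3.04, -3.09 and -3.64 in WT replicates 1 to 5. The KO values all fell inside the WT range, but only because WT replicate 5 was lowest of all. The other 4 WT arrays ran from -3.31 to -3.04, and 3 of the 4 KO arrays lay below them. The means differed by -0.085, with an exact two-sided permutation p of 0.54 (0.54 adjusted over both balances), and the sign turned with quantile normalization (0.037). Without WT replicate 5 the difference was -0.18 (exact p = 0.0571), and without it and KO replicate 1 it was -0.22 (exact p = 0.0571).

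The balance of Wasl minus Was was -1.29, -1.56, -1.19 and -1.08 in KO replicates 1 to 4 and -0.90, -1.06, -1.08, -0.93 and -0.59 in WT replicates 1 to 5. The groups met at -1.08 and did not otherwise overlap, with Was higher relative to Wasl in KO. The means were -1.28 ± 0.21 (SD, n = 4) and -0.91 ± 0.20 (SD, n = 5), a difference of -0.37 with an exact two-sided permutation p of 0.0238, and 0.0476 adjusted over both balances. Since Wasl itself differed by -0.022, the shift repeats that of Was and is no separate observation. The adjusted exact p was 0.0794 with quantile normalization and 0.107 without KO replicate 1, 2 or 3. It was 0.0571 without WT replicate 3 or 5 and 0.114 without WT replicate 1, 2 or 4. With 4 arrays against 4 the smallest two-sided exact p is 0.0286, which is 0.0571 after adjustment beside a larger p of the other balance. An adjusted pass was therefore out of reach in these 5 settings. Before adjustment the exact p was 0.0286 without WT replicate 3, the smallest possible. Without WT replicate 1, 2, 4 or 5 it was 0.0571, above the smallest possible.

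**Figure D3:**
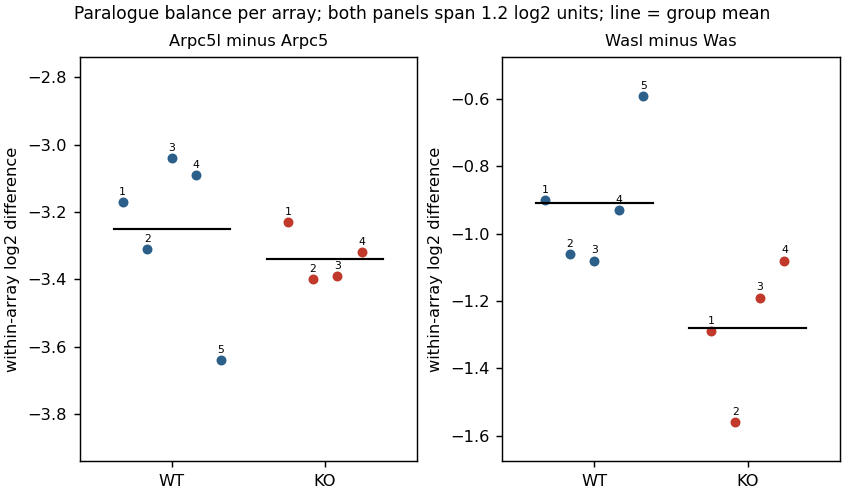
Within-array log2 difference between the paralogues Arpc5l and Arpc5 (left) and Wasl and Was (right) in the WT arrays (blue) and KO arrays (red), with replicate numbers and group means; both panels span 1.2 log2 units. On the left WT replicate 5, at -3.64, is lowest, and 3 of 4 KO arrays lie below the other WT arrays; on the right the groups meet at -1.08.

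Some markers of other blood cells differed between the arrays as Was and Arpc5 did, and others did not. In KO replicates 1 and 2, the arrays highest in both genes, the mean deviation of 10 neutrophil markers from their means over all arrays was 1.65 and 1.47, against -0.53 and -0.19 in the KO arrays 3 and 4. The WT arrays ran from -0.91 to 0.22. KO replicate 3, with Was at 10.86 above every WT array, thus had a neutrophil score within the WT range. Of these 10 markers 6 were above background on average and 2 in every array. The 8 markers of granulocyte-monocyte progenitors were at 0.13, 0.67, 0.07 and 0.54 in KO replicates 1 to 4 and ran from -0.74 to 0.37 in WT. KO replicate 4, at 0.54, had the lowest KO signals of Was (10.75) and Arpc5 (13.58). WT replicate 3 had the highest value of the neutrophil and progenitor lists among the WT arrays, and its Was signal of 10.75 was also the highest there. The 6 monocyte and macrophage markers ran from -0.30 to 0.60 in KO and from -0.47 to 0.24 in WT. The 7 B cell markers measured, 4 of them above background on average, ran from 0.16 to 0.21 in KO and from -0.22 to -0.02 in WT, and 5 platelet markers from 0.14 to 0.62 and from -1.70 to 0.38. Among 7 T and NK cell markers the deviation ran from 0.01 to 0.19 in KO and from -0.13 to 0.06 in WT. The 5 erythroid markers were at -0.47, 0.20, 0.75 and 0.57 in KO replicates 1 to 4 and ran from -2.78 to 0.92 in WT. Within KO they were lower in replicates 1 and 2, where Arpc5 and Was were higher. The lowest array of all, WT replicate 5 at -2.78, had the lowest Was signal, 10.42. The 7 LSK markers ran from -0.24 to 0.02 in KO and from -0.17 to 0.51 in WT. Without KO replicates 1 and 2 together, left out for their neutrophil markers after seeing the data, Was differed by 0.19 and Arpc5 by 0.16, with unadjusted limma p of 0.0997 and 0.127. Because these arrays are also the highest in both genes, leaving them out lowers both differences whatever their markers. The part of these cell types in the differences was not tested.

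The array that departed most from the rest in these genes was WT replicate 5. It was the lowest of 9 arrays in 4 members, Arpc1a, Arpc4, Arpc5l and Was, and the highest in 2, Wasl and Fmnl1. Its median deviation over the members was -0.12, against -0.034 over all genes above background. Its erythroid markers deviated by -2.78 and its platelet markers by -1.70. KO replicate 1 was the lowest in 2 members, Actr3 and Arpc2. With both arrays left out, Was differed by 0.27 and Arpc5 by 0.19, with unadjusted limma p of 0.058 and 0.0688, and 0 of 10 members had an unadjusted p under 0.05.

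The wider machinery around these genes was described from lists of subunits, activators, partners, formins, other nucleators and inhibitors, 74 measured genes in all and 64 besides the members. Of the 64, 0 passed an adjusted p of 0.05 in limma, and 2 had an unadjusted p under 0.05, both lower in KO, against 1.19% of all genes in that direction. Over the 74 genes 33 had a higher and 38 a lower mean in KO, with a median difference of -0.0077, while 63.9% of all genes were higher. With quantile normalization 26 were higher and 48 lower, where 53.5% of all genes were higher. With centring 18 were higher and 55 lower, where 39.8% of all genes were higher.

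The Arp2/3 complex itself had 6 measured genes, all members, 5 with higher and 1 with a lower mean in KO and a median difference of 0.069. With centring the signs of Actr3 and Arpc1a turned, and with quantile normalization that of Actr3.

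The nucleation-promoting factors had 14 measured genes, 6 with higher and 7 with lower means in KO. Was was the 1 member with an unadjusted p under 0.05 in the higher direction, and Jmy and Washc4 were those in the lower. Jmy encodes a p53 cofactor that also nucleates actin, and had signals of 9.00, 9.09, 9.23 and 9.23 in KO replicates 1 to 4 and of 9.23 to 9.36 in WT. Its difference was -0.14 (limma adjusted p = 0.786). Washc4 encodes a subunit of the WASH complex, which branches actin on endosomes, and ran from 9.68 to 9.91 in KO and from 9.91 to 10.04 in WT, with a difference of -0.13 (limma adjusted p = 0.786). In both genes the KO and WT arrays met at a shared value. Hcls1, the blood cell relative of cortactin, differed by -0.056 (interval -0.20 to 0.090) and Wasf2 of the WAVE complex by -0.050 (interval -0.22 to 0.12).

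Partners and upstream switches of WASP had 21 measured genes, 7 higher and 14 lower in mean, with a median difference of -0.040 and 0 at an unadjusted p under 0.05. Cdc42, the GTPase that opens WASP, differed by -0.040 with an interval from -0.12 to 0.037. Pstpip1, a WASP-binding adaptor, had the largest difference of this list, -0.41 (interval -1.03 to 0.21), with WT replicate 5 at 10.76 and KO replicate 1 at 9.08 as its extremes.

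The formins had 14 measured genes, 7 higher and 6 lower in mean, with differences from -0.14 to 0.14 and a smallest unadjusted limma p of 0.34. Diaph2 and Diaph3, relatives of Diaph1, differed by -0.088 and -0.049. Tandem-monomer nucleators, which line up actin molecules to start a filament, had 7 measured genes, 3 of them above background, and 0 at an unadjusted p under 0.05. The genes that inhibit Arp2/3 or remove branches had 9 measured members, 4 higher and 5 lower. Gmfg, a debranching factor of blood cells, differed by 0.17 (interval -0.015 to 0.36), and Coro1a, a leukocyte coronin, by -0.15 (interval -0.58 to 0.28). Among actins and profilins, the raw material of filaments and its carrier, Actb differed by -0.014 (interval -0.18 to 0.16) and Pfn1 by 0.075 (interval -0.053 to 0.20).

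**Figure D4:**
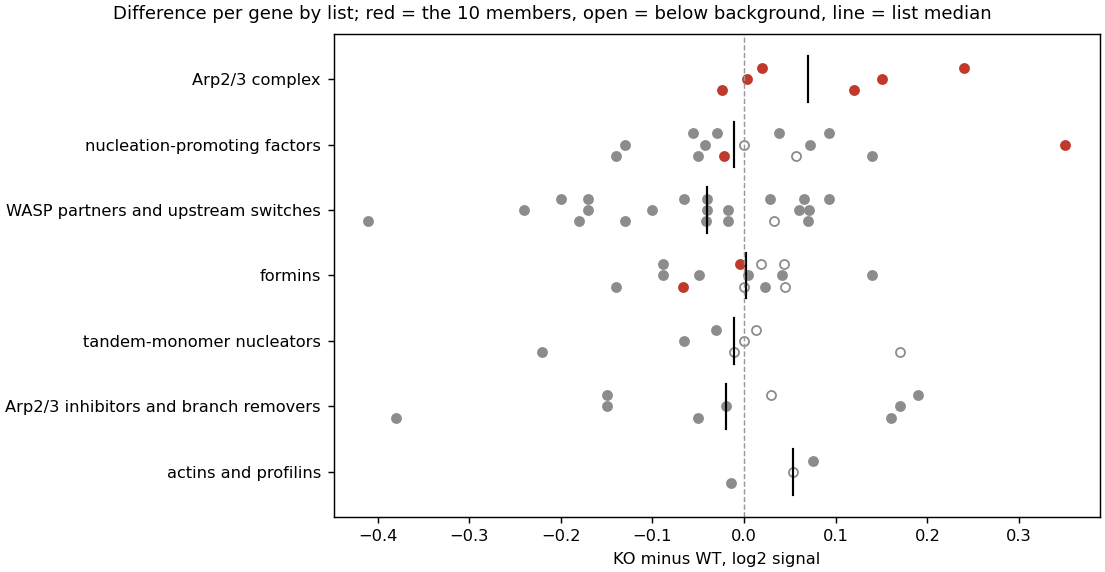
Difference in log2 signal between KO and WT for each measured gene of the 7 lists, with the 10 described genes in red, other genes in grey, genes below background as open circles and the list median as a line. The differences run from -0.41 to 0.35, and the point farthest to the right is Was.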

How the data were processed

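The deposited table holds signals of 72688 probesets in 9 arrays, read here as log2. They were summarised and normalized by the authors with Partek 6.6, per the submitters' processing notes. How they were normalized, whether background was subtracted, and the log base: not given in the sources used here. The values, from 1.84 to 19.45, fit a log2 scale, and every fold rests on that reading. Precision is limited by how many arrays there are, with a median standard error of 0.12 for the difference of genes above background.

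After 6732 control probesets were set aside, 30604 probesets with exactly 1 symbol gave 30142 genes, the brightest probeset standing for each, and 827 symbols were updated through Entrez identifiers to RefSeq (GRCm38.p6). Background was set per array at percentile 95 of 1717 genes of olfactory or vomeronasal receptors. The groups were compared by limma 3.58.1 under R 4.3.3 (lmFit, eBayes, no covariate, Benjamini-Hochberg over all genes), after a test on simulated data. Single values and balances were tested by exact two-sided permutation. Per the labels each replicate is its own mouse, and no batch is named. The members, the wider lists and the alternatives were chosen with earlier results of these data known. Outside the members, the naming rule took, per list, up to 2 genes per direction with the smallest unadjusted p under 0.05, and other list genes named are examples chosen after their values were seen. Alternatives were quantile normalization, median centring, a filter on dim genes, the mean of all probesets, a trended robust eBayes, a replicate block and arrays left out. Each array score of a marker list is a mean deviation from the means over 9 arrays.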

Additional observations from a re-analysis of the deposited data

Results flagged for a closer look

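In 3 of 20 groups of the members' values (10 genes in KO and in WT) a single array lay apart by Dixon's test, in which its gap to the nearest other array, as a share of the range of the group, exceeds the 95% critical value. Arpc2 was 15.04 in KO replicate 1, with KO replicates 2 to 4 at 15.16 to 15.17. Wasl was 9.83 in WT replicate 5, against 9.67 in each of the other 4. Fmnl1 was 11.10 in WT replicate 5, against 10.72 to 10.79. That critical value is built to mark about 1 in 20 groups of normally distributed values by chance, but 21.2% of the groups of genes above background were marked in these data. Of the genes above background 13.2% hold one value in at least 5 of 9 arrays, Wasl among them, and the part of such equal values in these marks was not tested.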

How the results depend on the processing

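Over 17 alternatives to the limma comparison, Abi1 alone passed in the full set of genes, and 0 members and 0 genes of the wider lists passed. Was and Arpc5 kept a higher mean in KO in each, at 0.19 to 0.42 and 0.15 to 0.27. The count of members with an unadjusted limma p under 0.05 was 2, and it was 1 with quantile normalization or centring (Was), 0 without KO replicate 1 and WT replicate 5, 0 without KO replicates 1 and 2, and 3 without WT replicate 4, where Arpc4 joined. Signs turned mostly for differences near 0, and also for Arpc5l, which differed by 0.15 as deposited. Quantile normalization gave -0.055 for Actr3, 0.025 for Wasl and 0.037 for the Arpc5l minus Arpc5 balance, and centring -0.037 for Actr3 and -0.054 for Arpc1a. Without KO replicate 1 and WT replicate 5, Arpc1a was -0.063, Arpc2 0.0058, Arpc5l -0.023 and Diaph1 0.12. Without KO replicates 1 and 2, Arpc1a was -0.012, Arpc2 0.0040 and Diaph1 0.13. Leaving out 1 array at a time gave -0.037 to 0.083 for Actr3, -0.055 to 0.030 for Arpc1a, -0.036 to 0.0073 for Arpc2, -0.095 to 0.096 for Diaph1 and -0.042 to 0.010 for Wasl. The Wasl minus Was balance passed as deposited and without KO replicate 4. Centring, leaving out dim genes and the mean of all probesets gave the same pass, but these settings cannot change the balance. Centring moves both genes of an array alike, and the others leave the values of both genes, each on 1 probeset, as they were. The balance did not pass with quantile normalization (-0.35) or without KO replicate 1, 2 or 3 (-0.43 to -0.27 over all single arrays left out). A pass was out of reach without a WT array. It was so too without KO replicate 1 and WT replicate 5 (-0.28) or KO replicates 1 and 2 (-0.22). There the smallest adjusted exact p beside a larger p of the other balance is 0.0571, 0.0571 and 0.0952. Before adjustment the smallest possible exact p is 0.0286, 0.0286 and 0.0476. The exact p found was 0.0286 without WT replicate 3 and 0.0571 without each other WT array. It was 0.0571 without KO replicate 1 and WT replicate 5, and 0.19 without KO replicates 1 and 2. The Arpc5l minus Arpc5 balance was -0.18 without WT replicate 5 and -0.22 without KO replicate 1 and WT replicate 5. The cause was not tested. The trended eBayes gives no value for the balances. With the replicate number as a replicate block, to which WT replicate 5 adds nothing, the count of calls stayed at 1, Arpc1a was -0.055, Wasl 0.010 and Diaph1 0.022, and the Wasl minus Was balance -0.29 over 4 pairs, whose exact p cannot go below 0.125. Deviations of arrays with the same number correlated at -0.18 to 0.27. Arrays with different numbers were not compared in this way, so these values do not settle whether the numbers pair the mice. Signals of all members were above background in all arrays.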
